A study of Mus musculus with 4 samples.

Results

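The levels of 6 miRNAs with known roles in hypoxia, invasion or metastasis were followed across 4 mouse hepatocarcinoma lines. On the array they are named mmu-miR-210, mmu-miR-103, mmu-miR-21, mmu-miR-222, mmu-miR-214 and mmu-miR-31, and the prefix is left out from here on. They were taken by name, with earlier results of these data known, and are 6 of the 414 mouse miRNAs on the array. All 6 matched 1 probe each. H22 is a suspension line and Hepa1-6 an adherent line, and per the labels neither spreads through the lymphatics. Hca-P and Hca-F are suspension lines derived from H22, with a lower and a higher ability for lymphatic metastasis. Both were grown, as the labels have it, for about 7 days in the abdominal cavity of 615 mice, recovered from ascites and cultured in RPMI-1640, and Hepa1-6 was cultured in DMEM. How H22 was cultured is not stated in the labels. No line was treated, and all 4 were profiled on LNA (locked nucleic acid) capture arrays with 1 array per line, so no difference between 2 lines has a replicate check.

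miRNAs are short RNAs that guide Argonaute proteins to messenger RNAs, mainly by pairing of the seed, bases 2 to 8 counted from the 5′ end, and thereby lower the output of those messages. Under low oxygen, hypoxia-inducible factor raises miR-210, which represses mitochondrial proteins such as the iron-sulphur scaffold Iscu and shifts cells away from respiration. The other miRNAs are known mostly from work on human tumours. miR-21 represses Pdcd4, miR-221 and miR-222 repress the cell cycle inhibitor Cdkn1b, miR-103 and miR-107 repress Dicer, and miR-31 restrains invasion through targets that include RhoA. miR-214 is made with miR-199a from the Dnm3os transcript and has been described as promoting or restraining spread, depending on the tumour.

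The mature sequences are printed because relatives on the array were picked by a shared seed, which does not mean that their probes read the same RNA. They come from RefSeq on build GRCm38.p6, in which all 6 were matched, each by the arm that the older, unsuffixed array name is known to stand for. The seed is in capitals, and miRNAs of the array that share it follow each other.
miR-210-3p: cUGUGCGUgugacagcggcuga
miR-103-3p: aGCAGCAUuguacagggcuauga
miR-107-3p: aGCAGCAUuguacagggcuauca
miR-21a-5p: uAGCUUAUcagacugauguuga
miR-222-3p: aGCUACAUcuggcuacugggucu
miR-221-3p: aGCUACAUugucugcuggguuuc
miR-214-3p: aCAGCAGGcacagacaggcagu
miR-761: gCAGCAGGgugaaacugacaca
miR-31-5p: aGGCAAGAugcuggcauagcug
None of the 6 miRNAs shares its seed with another of the 6. miR-103 and miR-107 differ by the single substitution G22C (base of miR-103, position from the 5′ end, base of miR-107), whereas miR-222 and miR-221 have 11 identical positions of 23, and miR-214 and miR-761 have 13 of 22.

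In the genome, miR-210 lies at chr7:141221407-141221428 on the minus strand, outside any other gene of the RefSeq table. miR-103 has a copy at chr11:35782447-35782469 and another at chr2:131288103-131288125, both on the plus strand and within the pantothenate kinase genes Pank3 and Pank2, while miR-107 lies within Pank1. miR-21a lies at chr11:86584120-86584141 on the minus strand, within the annotated span of Vmp1. miR-222 lies at chrX:19146901-19146923 on the minus strand, 571 bases from miR-221. miR-214 lies at chr1:162223438-162223459 on the plus strand, within the lncRNA gene Dnm3os and the protein-coding gene Dnm3, and miR-31 at chr4:88910614-88910635 on the minus strand, within the lncRNA gene Gm49890.

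Values below are intensities after subtraction of the local background, in scanner units, or levels, which are these intensities divided by the array's median over 65 reference probes. A level of 1 is therefore that median. Each probe was read in 4 spots of an array, and every error given as ± is the SD over these 4 spots. Spots show how evenly an array read a probe and do not replicate a line. An intensity under 50 was not counted as measured, so the lowest level that counts as measured was 0.136 for H22, 0.126 for Hca-P, 0.154 for Hca-F and 0.124 for Hepa1-6. The number of arrays limits the precision.

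Of the 414 miRNAs, 71 to 87 were measured in a line and 103 in at least 1. The median over the mouse probes was 3.5 to 11 units, and the brightest of 80 spike-control positions reached 18 to 27.2 units. The arrays fell into pairs. Over 160 Hy3 landmark spots, H22 and Hepa1-6 differed by a median of 3 units at a mean of 12495, and Hca-P and Hca-F by 4 units at a mean of 13540, while arrays of different pairs differed by 1026 to 1032 units. When each spot was set against the mean of its probe, these deviations correlated at 0.733 between H22 and Hepa1-6 (345 probes) and 0.698 between Hca-P and Hca-F (323 probes), against 0.154 to 0.286 in the other pairs of arrays. These pairs are also the lines without and with lymphatic metastasis, so array pair and metastasis class cannot be told apart. Of 5 hepatocyte miRNAs on the array, 0 were measured in any line. miR-122, the main miRNA of hepatocytes, stayed under the minimum at 12.2 to 33 units, though above the brightest spike control of its array in H22, Hepa1-6 and Hca-P.

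H22 expressed 4 of the 6 miRNAs at a measured level, Hepa1-6 and Hca-P 3 each, and Hca-F 2. miR-210 was measured in every line. miR-214 was measured in 3 lines and miR-31 in 2. miR-21 was measured in H22 alone, and miR-103 and miR-222 in Hca-P alone. By comparison, 54 of the 103 miRNAs measured anywhere were measured in all 4 lines, 11 in H22 alone and 6 in Hca-P alone.

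**Figure D1:**
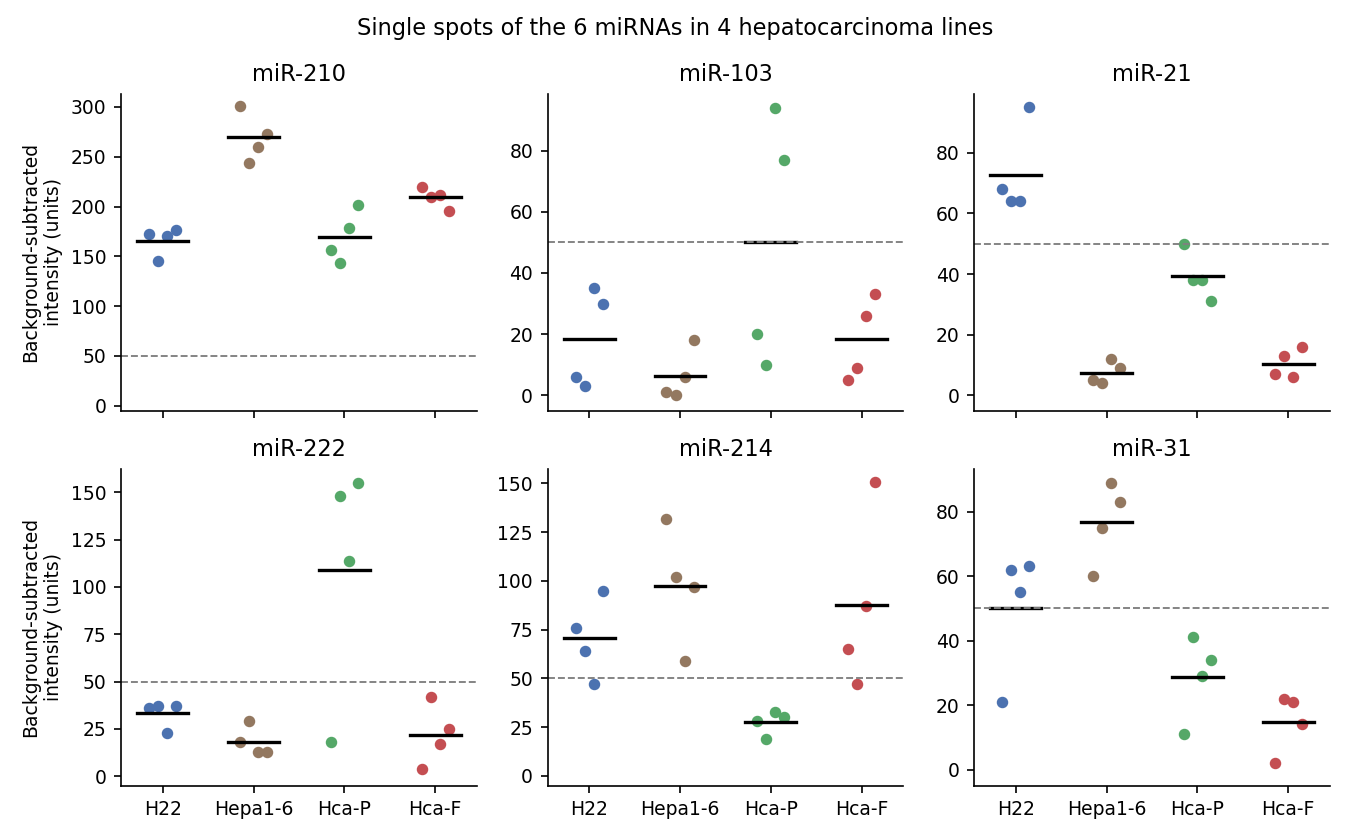
Background-subtracted intensity (units, linear axis of its own in each panel) of each of the 4 spots for the 6 miRNAs in H22, Hepa1-6, Hca-P and Hca-F. Black bars are means over 4 spots and the dashed line is the detection minimum of 50. The spots of miR-210 lie above 50 in every line, between 143 and 301, whereas those of the other 5 miRNAs lie on both sides of it, between 0 and 155.

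miR-210, the hypoxia miRNA, was the member read above the minimum by every spot of every array. Its spots read 172, 145, 170 and 176 units in H22 and 301, 244, 260 and 273 in Hepa1-6. They read 156, 143, 178 and 202 units in Hca-P and 220, 210, 212 and 195 in Hca-F. After scaling, its level was lowest in Hca-P (0.428 ± 0.0654) and H22 (0.452 ± 0.0383) and highest in Hca-F (0.645 ± 0.0322) and Hepa1-6 (0.667 ± 0.0597). With this scaling the lines fell into a lower pair, H22 and Hca-P, and a higher pair, Hepa1-6 and Hca-F, with no overlap of spot levels between the pairs: the highest spot of the lower pair was at 0.510 and the lowest of the higher pair at 0.601. The lower and the higher pair each hold 1 line with and 1 without lymphatic metastasis. This grouping did not hold under every scaling. Before scaling, the brightest spot of Hca-P (202 units) passed the dimmest of Hca-F (195), and with all capture probes as the scale Hca-F was 0.31 above H22 on the log2 scale, nearer to Hca-P (0.22) than to Hepa1-6 (0.65).

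Within each of these pairs miR-210 differed by less than the spread of its spots with the reference scaling. Hca-P was 1.05-fold below H22, a log2 difference of -0.08 with an SD of 0.14 taken spot by spot, and Hca-F was 1.04-fold below Hepa1-6, -0.05 with an SD of 0.13. The sign of the first depended on the scaling: it was positive in 4 of 10 alternatives, with a range of -0.31 to 0.52. The second kept its sign but ranged from -0.02 to -0.91, and was beyond the spread of spots without scaling (-0.37), with all capture probes (-0.35) and with either 75th percentile. Hca-F, with the higher metastasis ability, was 1.51-fold above Hca-P, a log2 difference of 0.59 with a spot-by-spot SD of 0.28 and all 4 spots in that direction. The median of the 85 miRNAs measured in either line was shifted the same way, by 0.45, which leaves little of the difference relative to it.

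Hca-F was also 1.43-fold above H22 in miR-210 (log2 0.51, SD 0.16, 4 of 4 spots), where the median miRNA was at -0.09. H22 was 1.48-fold below Hepa1-6 (log2 -0.56, SD 0.09, 4 of 4 spots), where the median miRNA was higher in H22 by 0.31. Hca-P was 1.56-fold below Hepa1-6 (log2 -0.64, SD 0.23, 4 of 4 spots), with the median miRNA at 0.07. In no pair of lines did miR-210 differ by 2-fold with the reference scaling. With the array's 75th percentile of the mouse probes as the scale, it was 2-fold or more apart in 3 pairs, Hca-F against H22 at 1.07 on the log2 scale, H22 against Hepa1-6 at -1.44 and Hca-P against Hepa1-6 at -1.03. With that percentile taken over miRNAs detected on every array, H22 and Hca-P were again more than 2-fold below Hepa1-6, H22 at -1.27.

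The narrow range of miR-210 set it beside few other miRNAs. Its highest and lowest line differed by 1.56-fold, and of the 54 miRNAs measured in all lines 1, miR-877, had a smaller range (1.38-fold), against a median range of 3-fold. This rank moved with the scaling: with the 75th percentile of the mouse probes 18 of 54 had a smaller range than miR-210, and with that of the miRNAs detected in all arrays 24 did. The 3 miRNAs with the most similar profile over the 4 lines were let-7e, miR-695 and miR-877. Likeness was measured as the largest difference in log2 level over the 4 lines after subtraction of each miRNA's own mean, which was 0.10 for let-7e, 0.10 for miR-695 and 0.25 for miR-877, with a median of 0.88 over 53 miRNAs. The level of let-7e was 0.388 ± 0.129 for H22, 0.420 ± 0.297 for Hca-P, 0.572 ± 0.268 for Hca-F and 0.637 ± 0.175 for Hepa1-6, and these spreads over spots overlap between lines.

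**Figure D2:**
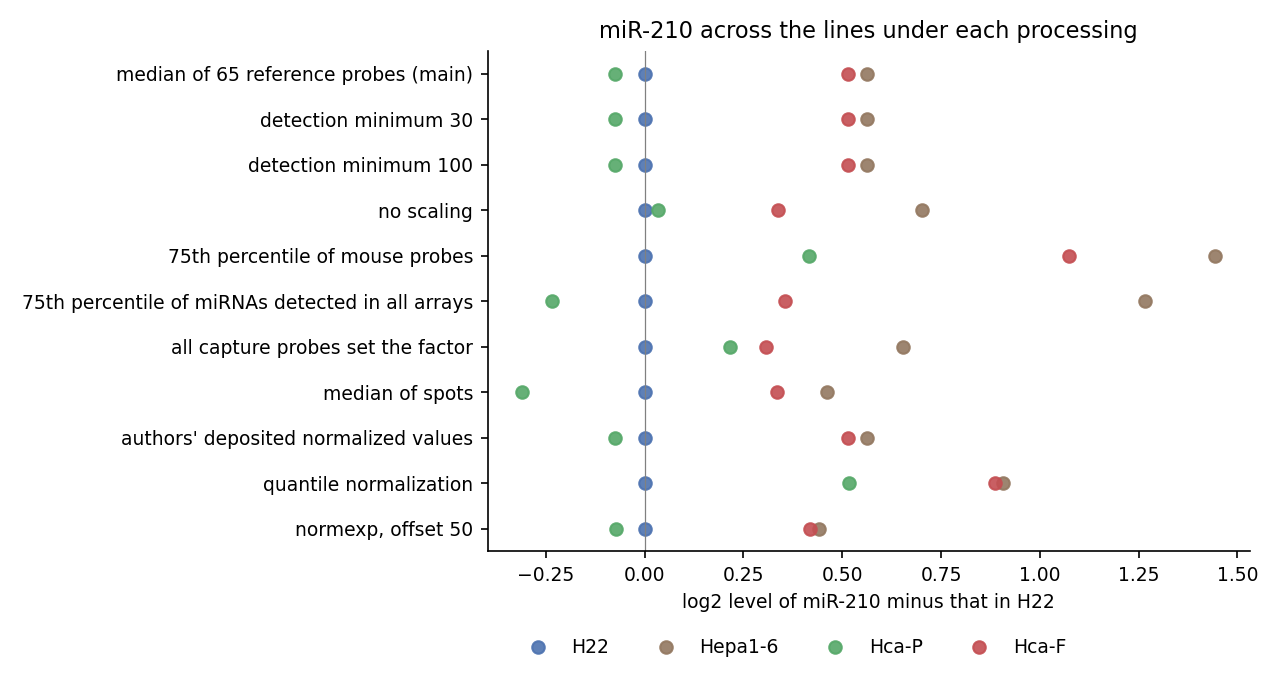
log2 level of miR-210 in each line minus its level in H22 (x axis) under the main and 10 alternative ways of processing (y axis). Hepa1-6 and Hca-F lie above H22 in every setting, at 0.31 to 1.44, while Hca-P lies on either side of H22, from -0.31 to 0.52.

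Among the miRNAs known to promote spread, miR-222 was brightest in Hca-P, the line with the lower metastasis ability. Its spots there read 18, 148, 114 and 155 units, a mean of 108.8 ± 63.1, with 1 spot far below the other 3. Its means in the other lines were under the minimum, at 33.2 ± 6.85 units in H22, 18.2 ± 7.54 in Hepa1-6 and 22 ± 15.9 in Hca-F, and no spot in them exceeded 42 units. Apart from the low spot, Hca-P thus did not overlap with the other lines.

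Against the detection minimum miR-222 was at least 2.01-fold higher in Hca-P than in H22, at least 2.22-fold higher than in Hepa1-6 and at least 1.78-fold higher than in Hca-F. The log2 bounds of 1.01, 1.15 and 0.83 were spread over spots with an SD of 0.76, with spots under 50 set to 50. With the median of the 4 spots, on which the low one weighs less, they were 1.11, 1.29 and 1.08. Other processing lowered them: with the 75th percentile of miRNAs detected on every array as the scale, the bound over Hepa1-6 was 0.29 and that over H22 0.85, and with normexp they were 0.66 and 0.56. The bound over Hepa1-6 was also under 2-fold with the 75th percentile of mouse probes (0.76) and after quantile normalization (0.72). miR-221, its neighbour on the X chromosome and seed relative, was not measured in any line and stayed at 1.75 to 9.75 units, below the brightest spike control of each array.

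miR-103, whose family represses Dicer, reached the minimum in Hca-P by 0.25 units. Its spots read 20, 10, 94 and 77 units there, a mean of 50.2 ± 41.5, and its median of spots was under 50. The same spots were the brighter ones in each other array, the later pair of spots reading 35 and 30 units in H22, 6 and 18 in Hepa1-6 and 26 and 33 in Hca-F and the earlier pair 0 to 9 units. The reading in Hca-P therefore rests on 2 of the 4 spots. miR-103 was at least 1.02-fold above Hepa1-6, and against the other lines the bound was under 1, so no fold is given. miR-107, which shares all but its base 22, was under the minimum in every line, at 41.5 ± 8.70 units for H22, 39.5 ± 10.7 for Hca-P, 33.8 ± 13.7 for Hca-F and 10.8 ± 6.18 for Hepa1-6.

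miR-21, a miRNA that is abundant in many tumours and represses Pdcd4, was low on these arrays. In H22 its spots read 68, 64, 64 and 95 units, a mean of 72.8 ± 15 and a level of 0.198 ± 0.0407. In Hca-P its spots read 50, 38, 38 and 31 units, a mean of 39.2 ± 7.89 that is under the minimum but above the brightest spike control of that array (18 units). Hepa1-6, at 7.5 ± 3.70 units, and Hca-F, at 10.5 ± 4.80, lay below the brightest spike controls of their arrays. The spots of H22 did not overlap with those of any other line.

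As bounds, miR-21 was at least 1.6-fold higher in H22 than in Hepa1-6, at least 1.57-fold higher than in Hca-P and at least 1.29-fold higher than in Hca-F. These folds are limited by the minimum of 50: with a minimum of 30, H22 was 2-fold or more above each of the 3 lines. miR-590-5p, listed as a relative of miR-21, was measured in none of them.

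miR-214, which shares a precursor transcript with miR-199a, was measured in every line except Hca-P. Its spots read 76, 64, 47 and 95 units in H22 and 132, 102, 59 and 97 in Hepa1-6. They read 65, 47, 87 and 151 units in Hca-F and 28, 19, 33 and 30 in Hca-P. No spot of Hca-P reached the lowest spot of another line, 47, while the other 3 lines overlapped among themselves. The levels of these 3 were 0.192 ± 0.0551 in H22, 0.241 ± 0.0742 in Hepa1-6 and 0.270 ± 0.140 in Hca-F, and their differences, 1.12-fold to 1.40-fold, were within the spot-by-spot spread with the reference scaling. H22 was more than 2-fold below Hepa1-6 with the 75th percentile of mouse probes (-1.21 on the log2 scale), that of miRNAs detected on every array (-1.03) and quantile normalization (-1.26), and Hca-F more than 2-fold above H22 with the first (1.05) and the last (1.16). Between Hca-F and Hepa1-6 the sign itself turned with the scaling, from 0.16 to -0.70 on the log2 scale when the 75th percentile was taken over miRNAs detected on every array.

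miR-214 was at least 2.14-fold higher in Hca-F than in Hca-P, a log2 bound of 1.10 with a spot-by-spot SD of 0.68. Hepa1-6 was at least 1.91-fold and H22 at least 1.52-fold above Hca-P. The bound between Hca-F and Hca-P was under 2-fold without scaling (log2 0.81), when all capture probes set the factor (0.60), with the median of spots (0.91), after quantile normalization (0.92) and with normexp (0.71). The median miRNA was 0.45 higher in Hca-F by the reference scaling, on the same log2 scale as the value of 1.10.

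The relatives of miR-214 gave different readings. miR-199a-5p, from the same Dnm3os transcript, the probe for miR-199a-3p and miR-199b, and the opposite strand miR-214* were not measured in any line. miR-761, which has the same seed but comes from chromosome 4, was measured in the same 3 lines as miR-214, at levels of 0.360 ± 0.153 in H22, 0.617 ± 0.324 in Hepa1-6 and 0.257 ± 0.103 in Hca-F, and was at 41.8 ± 16.7 units in Hca-P. Of the 103 miRNAs measured anywhere, 7 were measured in these 3 lines and not in Hca-P. miR-761 was at least 2.85-fold lower in Hca-P than in H22, at least 4.89-fold lower than in Hepa1-6 and at least 2.03-fold lower than in Hca-F. miR-761 was brought in for its seed and outside the rule for named miRNAs, after its values were seen.

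miR-31, known to restrain invasion and metastasis, was measured in both lines without lymphatic metastasis and in neither line with it, a division that is also that of the array pairs described above. Of the 103 miRNAs measured anywhere, 5 were measured in these 2 lines only, miR-31 included. The spots of miR-31 read 60, 75, 89 and 83 units in Hepa1-6 and 21, 62, 55 and 63 in H22. They read 11, 41, 29 and 34 units in Hca-P and 2, 22, 21 and 14 in Hca-F. The first spot was the lowest on every array. Hepa1-6 lay wholly above Hca-P and Hca-F, whereas H22 passed the minimum by 0.25 units on average and its lowest spot overlapped with both.

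The level of miR-31 was 0.190 ± 0.0311 in Hepa1-6 and 0.137 ± 0.0540 in H22, 1.39-fold apart, with all 4 spots in that direction. That difference, -0.47 on the log2 scale, was -1.35 with the 75th percentile of mouse probes and -1.29 after quantile normalization. Hepa1-6 was at least 1.51-fold above Hca-P and at least 1.23-fold above Hca-F. H22 was at least 1.09-fold above Hca-P, and against Hca-F its bound was under 1. The signal lay close to the minimum. With a minimum of 30, Hepa1-6 was 2-fold or more above both Hca-P and Hca-F. The opposite strand, miR-31*, was measured in no line.

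**Figure D3:**
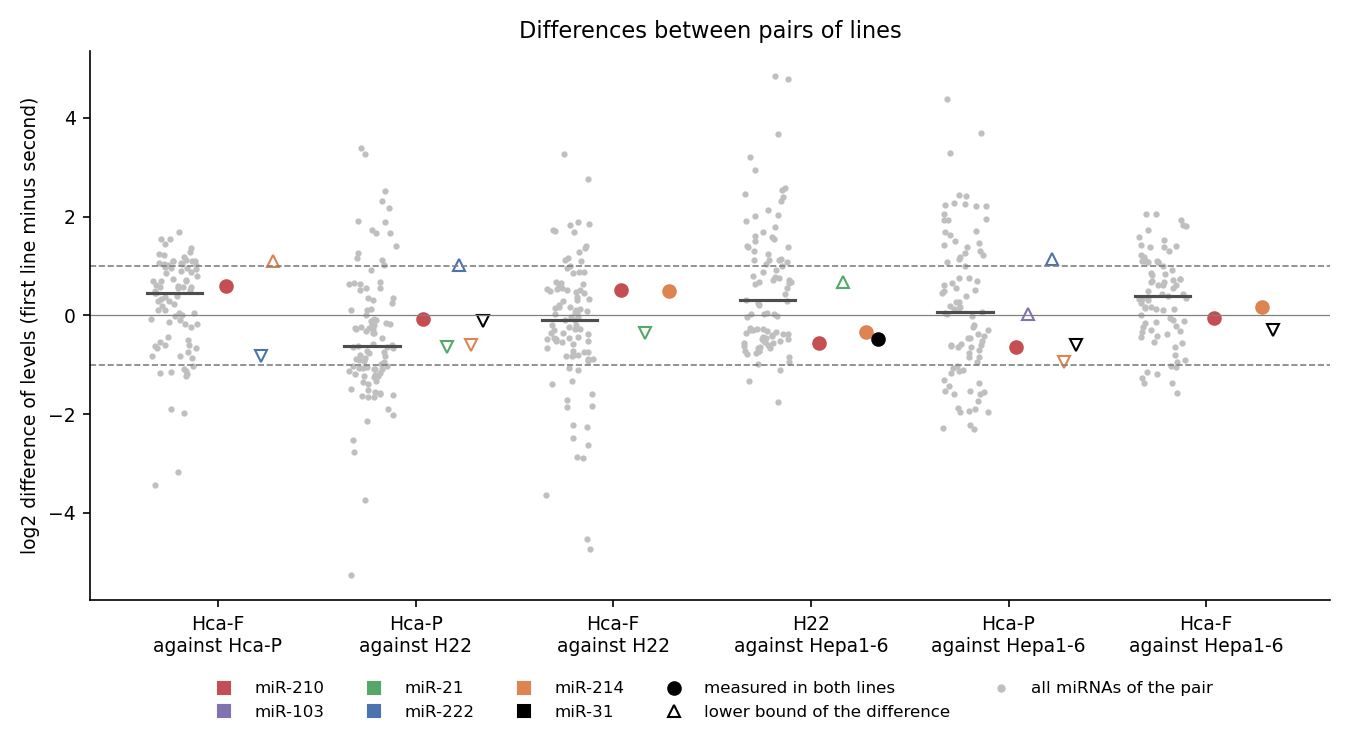
log2 difference of levels between the lines of each pair (y axis, first line minus second). Grey points are all miRNAs measured in at least 1 line of the pair, with a bar at their median; filled circles are members of the group of 6 measured in both lines, and open triangles are lower bounds of the size of a difference. Dashed lines mark 2-fold: miR-214 passes it for Hca-F against Hca-P, at a bound of 1.10, and miR-222 for Hca-P against H22 and against Hepa1-6, at 1.01 and 1.15.

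Counted over pairs of lines, few of the 6 were 2-fold or more apart. With so few members in a pair, most of them near the minimum and given as bounds, their share is not read against that of all miRNAs, which is given as background. Between Hca-F and Hca-P, 1 of the 4 miRNAs measured in either line was 2-fold apart (miR-214, higher in Hca-F), against 36.5% of the 85 miRNAs of that pair (23.5% higher and 12.9% lower in Hca-F). Between Hca-P and H22 it was 1 of 6 (miR-222, higher in Hca-P), against 50% of 98 (15.3% higher and 34.7% lower in Hca-P). Between Hca-P and Hepa1-6 it was 1 of 5 (miR-222, higher in Hca-P), against 56.2% of 89 (31.5% higher and 24.7% lower in Hca-P). None of 4 differed by 2-fold between Hca-F and H22, against 32.6% of 95 (14.7% higher and 17.9% lower in Hca-F). None of 4 did between H22 and Hepa1-6, against 37% of 92 (33.7% higher and 3.26% lower in H22). None of 3 did between Hca-F and Hepa1-6, against 37% of 81 (27.2% higher and 9.88% lower in Hca-F). All 3 calls are bounds against an unmeasured line.

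The direction of the background itself depended on the scaling. Between Hca-F and Hca-P, 20 miRNAs were higher and 11 lower in Hca-F with the reference scaling, but 6 higher and 15 lower without scaling and 3 higher and 21 lower with all capture probes. Between H22 and Hepa1-6, 31 were higher and 3 lower in H22, but 14 higher and 37 lower with the 75th percentile of the mouse probes, where 3 of the 4 miRNAs (miR-210, miR-214 and miR-31) were 2-fold lower in H22 against 55.4% of all. With the same percentile the split turned from 15 higher and 34 lower to 23 and 16 between Hca-P and H22, and from 14 higher and 17 lower to 31 and 13 between Hca-F and H22. Over miRNAs detected on every array that percentile moved it from 28 higher and 22 lower to 14 and 41 between Hca-P and Hepa1-6, and from 22 higher and 8 lower to 3 and 24 between Hca-F and Hepa1-6.

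Their medians over the miRNAs measured in a pair were 0.44 for Hca-F against Hca-P, beside 0.45 over all miRNAs, and -0.11 for Hca-P against H22, beside -0.62. They were 0.33 for Hca-F against H22 (all miRNAs -0.09), -0.40 for H22 against Hepa1-6 (0.31), -0.59 for Hca-P against Hepa1-6 (0.07) and -0.05 for Hca-F against Hepa1-6 (0.40). The minimum of 50 sets part of these medians, and the unequal levels it gives the arrays set the sign of miR-103 (0.28) in the first and of miR-31 (0.17) in that of Hca-F against H22, so neither median is read as a match or a difference. Comparisons that name the same line share its array.

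The question in the series title, lines with against lines without lymphatic metastasis, was tested with limma over the 103 miRNAs, with 2 lines in each class. None of the 6 passed an adjusted p of 0.05 in limma, nor was any at an unadjusted p under 0.05 (0 of 6), against 1.94% of all 103 past the adjusted threshold. miR-222 came closest, at a log2 difference of 0.66 ± 0.45 (SE) with a limma adjusted p of 0.651, with 3 of 4 arrays set to the minimum. miR-31 was at -0.21 ± 0.36 (SE) with a limma adjusted p of 0.901 and 2 arrays set to the minimum, and miR-214 at -0.22 ± 0.68 (SE) with the same limma adjusted p and 1 array set to it. miR-210, measured on every array, was at -0.06 ± 0.94 (SE) with a limma adjusted p of 0.993.

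miR-21 was at -0.17 ± 0.35 (SE) and miR-103 at 0.11 ± 0.28 (SE), both with a limma adjusted p of 0.901 and 3 arrays set to the minimum. Over the 6 miRNAs the standard errors were 0.28 to 0.94 on the log2 scale. The lines are not independent, because H22 is the parent of the others except Hepa1-6. limma drew the variance of each miRNA towards a trend with intensity over all 103 miRNAs. A standard error or p-value here is therefore not set by the spread of the single miRNA alone. The largest standard error, 0.94, is that of miR-210 and is no measure of its own range over the lines. The spread over 4 arrays behind these values may be technical.

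Other hypoxia-linked miRNAs were measured mainly in H22. Of 17 named in a list, 15 were on the array and 6 were measured somewhere: miR-23a, miR-23b, miR-24, miR-26a, miR-27b and miR-20a. All 6 were measured in H22, 3 in Hca-P (miR-23a, miR-24 and miR-20a), 1 in Hca-F (miR-20a) and none in Hepa1-6. Of all 414 miRNAs, 87 were measured in H22, 75 in Hca-P, 74 in Hca-F and 71 in Hepa1-6. Some of these readings lay close to the minimum. miR-26a in H22 was at 72.8 ± 73.1 units with 2 of 4 spots at 50 or more. miR-23a was just under the minimum in Hepa1-6 (47.8 ± 13.1 units) and Hca-F (48.8 ± 24.8 units). miR-23b, clustered with miR-27b, was at 171.8 ± 16.6 units in H22 and at most 39 in the others, at least 3.71-fold higher than in Hca-P. miR-27b, at 94.0 ± 50.5 units in H22, was at least 2.03-fold above Hca-P. As none of the 6 was measured in Hepa1-6, they entered the pair of H22 and Hepa1-6 only through H22. No count of their 2-fold differences is therefore set against that of the other miRNAs. miR-23b, miR-26a and miR-27b were counted only through H22. No order of lines is therefore read from the list or compared with that of miR-210, whose highest level was in Hepa1-6.

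miR-20a of the growth-promoting miR-17-92 cluster was highest in Hca-P (0.408 ± 0.103), with 0.215 ± 0.0645 in H22 and 0.201 ± 0.105 in Hca-F, while the other 5 measured miRNAs of the list were highest in H22. It was at least 3.29-fold higher in Hca-P than in Hepa1-6, and 2.03-fold higher than in Hca-F.

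Among 10 miRNAs on the array from a list of metastasis promoters, the 4 measured were miR-21, miR-103, miR-222 and miR-214. All 4 belong to the 6 followed here, and miR-214 has also been described as restraining spread. miR-10b, miR-9, miR-107, miR-155, miR-182 and miR-221 were under the minimum in every line. Of 15 restrainers, 3 were measured: miR-31, miR-206 and miR-34a. Over the whole array it was 103 of 414 miRNAs, and the counts of these chosen lists are not read against that share. The level of miR-34a, which p53 induces, was 1.30 ± 0.165 for H22, 0.515 ± 0.0570 for Hca-P, 1.07 ± 0.126 for Hca-F and 2.0 ± 0.256 for Hepa1-6. That of miR-206, better known from muscle, was 0.903 ± 0.295 for H22, 0.496 ± 0.0171 for Hca-P, 0.975 ± 0.112 for Hca-F and 1.43 ± 0.395 for Hepa1-6. Both were highest in Hepa1-6 and lowest in Hca-P with the reference scaling, 3.88-fold and 2.89-fold apart between these lines. The listed main strands of the miR-200 family, which restrains invasion by repressing Zeb factors (miR-200a, miR-200b, miR-200c, miR-141 and miR-429), were under the minimum in every line.

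**Figure D4:**
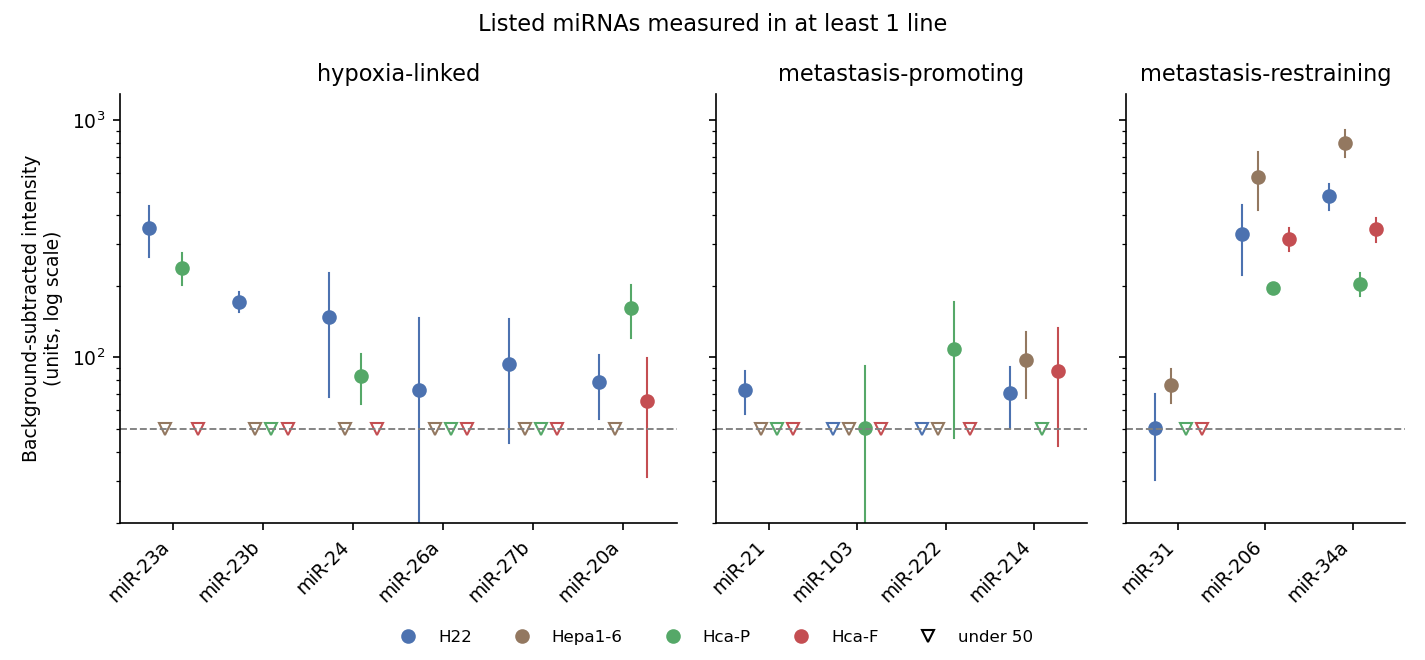
Background-subtracted intensity (units, log axis) of the listed hypoxia-linked, metastasis-promoting and metastasis-restraining miRNAs that were measured in at least 1 line. Filled circles are means over 4 spots with the SD as a bar, some of which run below the axis, and open triangles at 50 are lines under the minimum. The hypoxia-linked miRNAs are measured mainly in H22 and Hca-P, and miR-206 and miR-34a in all lines.

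Most markers of other cell types were low, with the exception of 2 miRNAs of the muscle list. Of 6 mesenchymal miRNAs on the array, miR-214 itself was the 1 measured, and miR-143, miR-145 and miR-140 were under the minimum. The summed intensity of that list ran from 69 units in Hca-P through 106.8 in H22 and 110.5 in Hepa1-6 to 119.8 in Hca-F. These sums include miR-214 itself, at 27.5, 70.5, 97.5 and 87.5 units in the same order of lines. The rest comes from miRNAs under the minimum, so the order of the sums is not read as a trait of the list. Of 5 leukocyte miRNAs, miR-142-5p alone was measured, in Hca-P at 59.2 ± 31.5 units, where miR-222 and miR-103 were measured too. The mean intensity over the leukocyte list, without scaling, was 25.6 units in Hca-P, 14.8 in Hca-F, 14.6 in H22 and 2.7 in Hepa1-6. Apart from miR-142-5p in Hca-P, these means rest on readings under the minimum. The members differed: miR-142-3p, miR-142-5p and miR-150 were brightest in Hca-P, miR-155 in H22 (43.75 units) and miR-223 in Hca-F (22.75 units). Any part of leukocytes in the readings of miR-222 and miR-103 was not tested. The 3 erythroid, 2 endothelial and 3 neuronal miRNAs on the array were under the minimum in all lines. Of the 4 muscle miRNAs, miR-1 (754 to 1628 units) and miR-206 (196.5 to 579 units) were measured in all lines. miR-133a and miR-133b were measured in none.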

How the data were processed

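Total RNA of 4 cell lines was labelled with Hy3 and read on 1 array each. The authors deposited 3 kinds of linear intensity: foreground per spot, intensity after background subtraction, and normalized intensity. Per the labels, spots were extracted in GenePix Pro and replicate spots averaged, and miRNAs at 50 or more in all samples set a median factor. Levels recomputed from the spots differed from the deposited normalized values by at most 4.99e-09. The factors were 367 (H22), 403.8 (Hepa1-6), 396.2 (Hca-P) and 324.5 (Hca-F). Of probes sharing a name the brighter was kept. A value under 50 was set to 50 before scaling, so folds against it are bounds. Pairs of lines have no test, and 2-fold is counted. Metastasis classes were compared with limma 3.58.1 (intensity trend, Benjamini-Hochberg over 103 miRNAs, threshold 0.05). A check on simulated data used less noise than these data have and changes larger than any of the 6 miRNAs showed. It tests the code and says nothing about the power to find differences here. Nothing in the labels separates biological from technical variation. Named were all 6 miRNAs, their seed and cluster relatives, the measured members of lists of hypoxia-linked, metastasis-linked and cell type miRNAs, and the 3 profiles nearest to each miRNA measured in all lines. The miRNAs and lists were chosen with earlier results of these data known. Alternatives were other scalings, background correction, spot medians, minimums of 30 and 100, fold thresholds of 1.5 and 3, no trend, and leaving out each line.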

Additional observations from a re-analysis of the deposited data

How the results depend on the processing

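With 1 array per line and signals near the detection minimum, precision is limited by the arrays and by signal over background. No paired analysis was possible because each line has 1 array and the labels give no replicate numbers. In limma 0 of the 6 miRNAs passed the adjusted threshold under each alternative run, including without each line in turn (0 to 0); an arm left with 1 line takes its spread from the other. Their limma adjusted p stayed between 0.452 and 0.998. Of all miRNAs, the 2 that passed became 0 to 3: 0 with a minimum of 100, without scaling, with all capture probes, the 75th percentile of mouse probes, quantile normalization, no trend, or without H22, Hca-P or Hca-F; 1 with the median of spots or the 75th percentile of miRNAs detected in all arrays; and 3 with a minimum of 30, normexp or without Hepa1-6. The authors' deposited normalized values gave the counts of the report. Of 201 recomputed differences of single miRNAs between 2 lines, 137 moved by no more than 1 spot-by-spot SD and 64 by more. A change of sign was looked for only in the 2-fold differences, which are all bounds. A bound that turned under 1 was left out, so that none was found says nothing about their stability. Among the smaller differences signs did turn, as for miR-210 in Hca-P against H22. Settings that left a difference without a value, with neither line measured or a bound under 1, are not among the 201. The 137 include the recomputations from the authors' deposited values, which equal the main levels. The counts of 2-fold differences were as follows where they moved. For Hca-F against Hca-P the 1 became 2 with a minimum of 30, 0 with 100, after quantile normalization, with normexp or at 3-fold, and 3 at 1.5-fold. Without scaling, with all capture probes or with the median of spots the 1 was miR-222, lower in Hca-F, in place of miR-214. For Hca-P against H22 the 1 became 3 with a minimum of 30 or at 1.5-fold, and 0 with a minimum of 100, the 75th percentile of miRNAs detected in all arrays, normexp or 3-fold. For Hca-F against H22 the 0 became 1 with a minimum of 30 (miR-21) or quantile normalization (miR-214), and 2 when scaled to the 75th percentile over mouse probes. For H22 against Hepa1-6 the 0 became 1 with a minimum of 30 or at 1.5-fold, 2 after quantile normalization, and 3 with either 75th percentile. For Hca-P against Hepa1-6 the 1 became 3 with a minimum of 30 or the 75th percentile of miRNAs detected in all arrays, 2 with that of mouse probes or the median of spots (both percentiles lose miR-222 and call miR-210 and miR-214 lower in Hca-P), 4 at 1.5-fold, and 0 with a minimum of 100, normexp or 3-fold, and after quantile normalization it was miR-214, lower in Hca-P. For Hca-F against Hepa1-6 the 0 became 1 with a minimum of 30 or the 75th percentile of miRNAs detected in all arrays (miR-31). With a minimum of 30 more miRNAs count as measured and with 100 fewer do; for the scalings the cause was not tested.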
